A study of Mus musculus with 12 samples.

Results

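The regions described here are S9.6 peaks that 2 deposited lists have in common, on the same strand, in stretches of the mouse genome where no RefSeq gene is annotated. A member is a pair of 1 HEPA1-6 peak and 1 liver-labelled peak on chromosomes 1 to 19 that overlap by at least 1 bp, carry the same strand, + or -, in both lists, and touch no gene of the RefSeq GRCm38.p6 table. The members were chosen by the deposited peak positions and strands of both lists, so these are described and not tested. There were 328 such pairs among 9385 same-strand pairs on these chromosomes. They were made of 314 HEPA1-6 peaks and 328 liver-labelled peaks, since 12 HEPA1-6 peaks each covered more than 1 liver-labelled peak and together gave 26 pairs. Of the other same-strand pairs, 8679 had both peaks over a gene and 378 had only 1 of them over a gene.

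An R-loop forms when RNA pairs with its DNA template and displaces the other DNA strand, mostly as an RNA polymerase transcribes. R-loops are known at the starts of genes with CpG-rich promoters and at the ends of genes, where the polymerase runs on past the poly(A) site before it terminates. A hybrid outside an annotated gene can therefore lie on run-on transcription downstream of a gene, on promoter transcription upstream of one, or on a transcript that the annotation lacks.

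The hybrids were collected with S9.6, an antibody against RNA-DNA hybrids, from DNA of HEPA1-6, a mouse hepatoma line grown in culture, and of liver from C57/Bl6 mice. All 12 libraries are labelled wild type with no treatment of the cells or animals, and they form 6 groups of 2 libraries, namely immunoprecipitate, RNase H1 treated immunoprecipitate and input for each source. Per the deposited peak names, each list came from merged immunoprecipitates against an input, so there is 1 list per source. No difference below has a replicate check, no p-value is given, and the sequencing depth behind the peaks is unknown. The HEPA1-6 list has 28717 peaks and the liver-labelled list 14908. The liver label was set against marker genes: peaks of that list overlapped 8 of 29 hepatocyte genes, 14 of 20 cell cycle genes, 15 of 16 housekeeping genes, 2 of 5 macrophage genes, 1 of 4 cholangiocyte genes and 0 of 5 each of endothelial, stellate and lymphocyte genes. Peaks of the HEPA1-6 list overlapped 8, 18, 15, 2 and 1 of the first 5 lists, and 0, 0 and 1 of the last 3. Both lists had peaks over 7 of the 29 hepatocyte, 14 of the 20 cell cycle and 15 of the 16 housekeeping genes. Over all 20665 protein-coding genes of chromosomes 1 to 19 that share was 27.2%. Peaks mark hybrids and not RNA levels, so that list keeps the name liver-labelled here. The score of a peak is the authors' own number, on a scale not given in the sources used here, and it ranks peaks within a list only.

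Sequences of 3 promoter windows show where members enter the stretch before a gene start, and they are printed because these pairs were among the 6 nearest on the upstream side. The HEPA1-6 peak is the one nearer to the gene in all 3. Each window holds 250 bases before and 50 bases after the start of the gene (RefSeq, GRCm38.p6), is printed in the direction of the gene, and has the bases inside both peaks in capitals. The last 50 bases of each window lie inside the gene. Sp4 is a transcription factor of the Sp family, Tob2 an antiproliferative protein and Rcor2 a corepressor of the REST complex.
Sp4, chr12:118301391-118301690, - strand: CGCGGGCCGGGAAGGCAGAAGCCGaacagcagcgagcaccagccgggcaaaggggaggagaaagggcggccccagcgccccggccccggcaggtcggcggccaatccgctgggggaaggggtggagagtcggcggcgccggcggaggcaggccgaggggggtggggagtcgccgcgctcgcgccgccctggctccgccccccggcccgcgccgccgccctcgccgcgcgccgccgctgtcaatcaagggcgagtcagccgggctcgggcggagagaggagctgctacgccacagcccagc
Tob2, chr15:81858277-81858576, - strand: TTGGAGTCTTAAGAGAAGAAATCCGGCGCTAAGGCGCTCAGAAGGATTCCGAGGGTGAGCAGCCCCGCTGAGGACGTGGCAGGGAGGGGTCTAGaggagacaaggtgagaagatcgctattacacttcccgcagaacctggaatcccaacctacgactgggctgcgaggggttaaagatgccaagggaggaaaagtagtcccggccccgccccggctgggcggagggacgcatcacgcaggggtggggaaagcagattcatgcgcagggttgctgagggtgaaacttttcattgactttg
Rcor2, chr19:7267144-7267443, + strand: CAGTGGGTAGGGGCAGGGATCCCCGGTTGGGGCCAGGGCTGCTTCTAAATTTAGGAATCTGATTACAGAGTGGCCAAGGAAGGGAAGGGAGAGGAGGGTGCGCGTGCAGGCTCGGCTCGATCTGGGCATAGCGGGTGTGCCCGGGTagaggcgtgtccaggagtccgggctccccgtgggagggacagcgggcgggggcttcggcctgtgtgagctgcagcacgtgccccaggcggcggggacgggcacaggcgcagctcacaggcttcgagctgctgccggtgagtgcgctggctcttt
The capitals cover 24 bases at Sp4, 94 at Tob2 and 146 at Rcor2. In the Sp4 window G and C made up 78.7% of the bases, in the Tob2 window 58.0% and in the Rcor2 window 67.3%.

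Members overlapped 19 promoter windows in all, 10 of them with bases inside both peaks and the others with 1 peak only. The median GC content of the 19 was 66.7% (59.7 to 74.0%), against 53.0% over all 31365 windows of chromosomes 1 to 19 and 62.7% over the 5264 windows that at least 1 peak overlapped. In the 10 windows with bases inside both peaks it was 61.2%. The median ratio of observed to expected CpG was 0.816 in the 19 windows, 0.730 in the 10, 0.388 over all windows and 0.813 over those with a peak. The excess of G over C along the gene strand, often seen behind R-loop promoters, had a median of 0 in the members' windows and of 0.00709 in windows with a peak.

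The median distance of the members to the nearest gene boundary was 1094.5 bp (95% order-statistic interval 928 to 1339 bp). That distance runs from the nearest base of either peak, and from the midpoint of the shared bases the median was 1984.5 bp. The quartiles were 423 and 2582 bp, and the range ran from 2 bp to 137222 bp. Within 1 kb of a gene lay 155 of the 328 pairs (47.3%, 95% Wilson interval 41.9 to 52.7%), and 47 pairs (14.3%) lay beyond 10 kb. From the midpoint 24.4% lay within 1 kb. Stranded peaks outside genes found in HEPA1-6 only lay at a median of 1156 bp, with 45.7% within 1 kb. Liver-labelled ones without a partner lay at 2833 bp, with 28.0% within 1 kb. Those are distances of single peaks, not of a union. From the liver-labelled peak alone, members lay at a median of 1552 bp, with 36.3% within 1 kb. From the HEPA1-6 peak alone the members' median was 1095.5 bp. The gene on the other flank was farther away, at a median of 15478 bp, and 131 pairs had a gene within 10 kb on both sides. Intervals here and below cover counting error only, and neighbouring pairs are not independent.

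The distances are tied to the rule through the strand, which the authors gave far more often to peaks near genes. Among peaks outside genes, 1301 of 1364 HEPA1-6 peaks (95.4%) and 851 of 908 liver-labelled peaks (93.7%) within 3 kb of a gene carried a strand. Beyond 3 kb the shares were 24.0% (253 of 1056) and 15.3% (278 of 1817). The drop falls at 3 kb itself: from 2500 to 3000 bp the shares were 90.3% and 79.7%, and from 3000 to 3500 bp 34.2% and 27.1%. How a strand was assigned is not given in the sources used here, and the cause of the step was not tested. The 248 pairs outside genes in which neither peak had a strand lay at a median of 13259 bp, with 3 of them within 1 kb. The nearness of members to genes, and the strand they share with them, are therefore given as a description of the set.

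**Figure D1:**
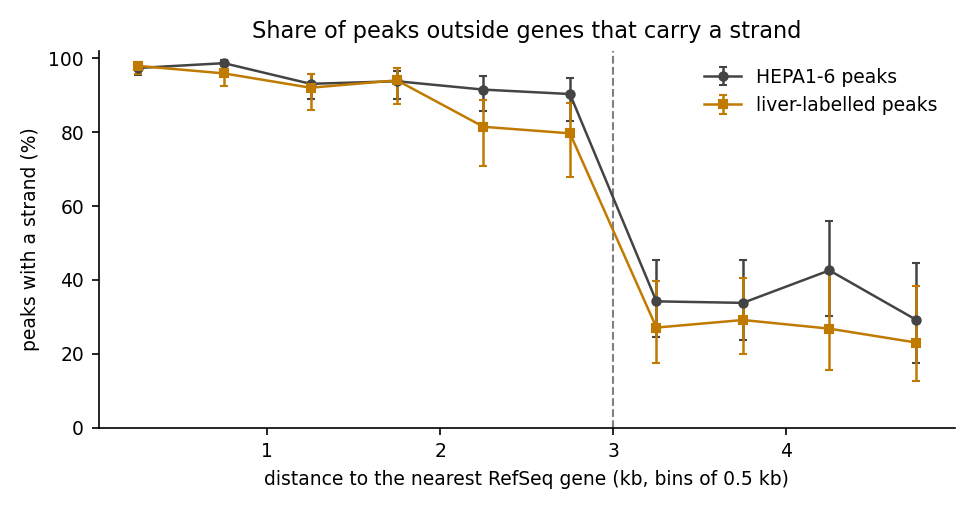
Share of peaks outside genes that carry + or - (vertical axis, percent) against the distance to the nearest RefSeq gene (horizontal axis, kb, in bins of 0.5 kb), for both lists, with 95% Wilson intervals. Up to 3 kb (dashed line) every bin lies above 79%, and from 3000 to 3500 bp the shares are 34.2% (HEPA1-6) and 27.1% (liver-labelled).

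Read along the strand of the peak, 182 of the 328 members lay downstream of their nearest gene (55.5%, 50.1 to 60.8%) and 146 upstream. Among the 150 pairs that remain when each list is cut to its higher-scoring 50%, the downstream share was 46.0% (38.2 to 54.0%). That interval includes 50%, so the small majority was not seen there. These 150 include all 12 pairs of a run at the start of chromosome 9, which lie upstream along their strand. The share of the 150 without that run was not computed. Along the strand of the peak and over all neighbours, the balance changed with distance. Within 100 bp 17 pairs lay downstream and 8 upstream, from 100 bp to 1 kb 73 and 57, from 1 to 10 kb 80 and 46, from 10 to 100 kb 12 and 33, and beyond 100 kb 0 and 2. Within 3 kb of a gene 156 of 254 pairs were downstream (61.4%), and beyond 3 kb 26 of 74 (35.1%). Beside protein-coding genes alone these shares were 64.7% (134 of 207) and 69.2% (18 of 26). The upstream pairs beyond 10 kb include neighbouring pairs of runs on chromosomes 9, 10 and 15. By the gene's own strand, which the RefSeq sequence tables give for the nearest gene of 235 pairs, 158 pairs (67.2%, 61.0 to 72.9%) lay past the gene's end. Of these, 12 form the run at the start of chromosome 9, and without them the share was 65.5% (146 of 223). With the run counted, 123 of 188 pairs (65.4%) lay past the gene's end within 3 kb, and 35 of 47 (74.5%) beyond 3 kb.

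**Figure D2:**
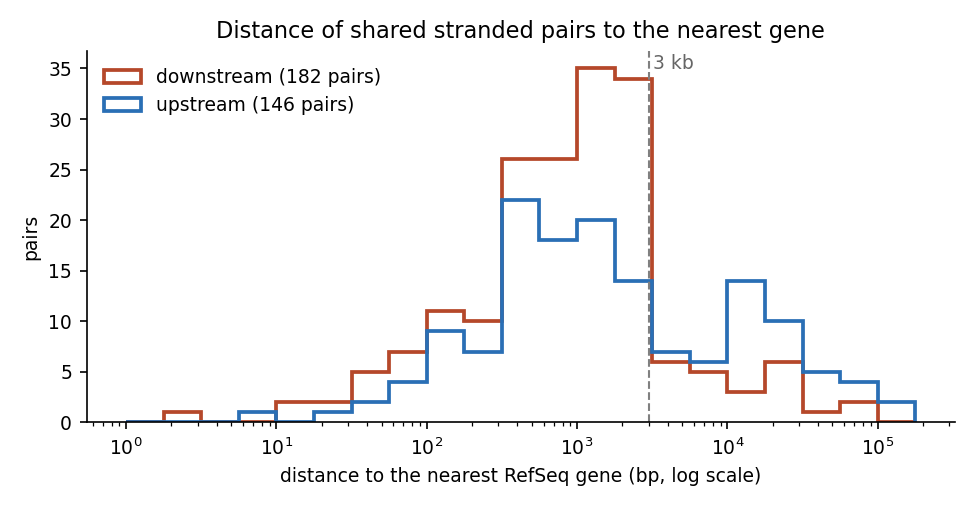
Number of shared stranded pairs (vertical axis) by distance to the nearest gene (horizontal axis, bp, log scale), downstream and upstream along the strand of the peak. There are 182 downstream and 146 upstream pairs. Within 3 kb (dashed line) 156 of 254 pairs lie downstream, and beyond 3 kb 26 of 74.

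Members mostly carried the strand of their neighbour. Of the 235 pairs with a gene of known strand, 203 (86.4%, 81.4 to 90.2%) had that strand, 133 past the gene's end and 70 before its start. The other 32 ran against it, 25 past the end, among them all 12 of the run on chromosome 9, and 7 before the start. Without that run the share on the gene's strand was 91.0% (203 of 223). Genes with an opposed pair just before their start, named after their values were seen, were Rab8a, a GTPase of vesicle traffic (63 bp, scores 13 for the HEPA1-6 and 16 for the liver-labelled peak), Lsm8, a subunit of the U6 snRNA-binding ring (145 bp, scores 28 and 21), and Uck2, a uridine-cytidine kinase (251 bp, scores 27 and 19).

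The nearest gene was protein-coding for 233 members (71.0%, 65.9 to 75.7%), a lncRNA for 38, a pseudogene for 23, a miRNA for 21 and an snRNA for 10, with 2 snoRNAs and 1 tRNA. Members next to a protein-coding gene lay at a median of 830 bp, and those next to a lncRNA at 2162.5 bp. Of the 182 downstream members 152 had a protein-coding neighbour (83.5%, 77.4 to 88.2%), and of the 146 upstream members 81 (55.5%, 47.4 to 63.3%).

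The 6 nearest members downstream of a gene, along the strand of the peak, began 2 to 41 bp after it. Past Ergic1, which encodes a membrane protein between the endoplasmic reticulum and the Golgi, a HEPA1-6 peak of 1847 bp began 2 bp after the gene (chr17:26656936-26658782, score 46), and the liver-labelled peak began at the same base and ended after 278 bp (score 39). The Ergic1 body itself held 17 HEPA1-6 peaks and 7 liver-labelled peaks. Past Kif11, the mitotic kinesin Eg5, both peaks began 11 bp after the gene (chr19:37421874-37423801), over 1928 bp in HEPA1-6 (score 33) and 599 bp in the liver-labelled list (score 15). The pair past Slc12a7, a potassium-chloride cotransporter, began 24 bp after the gene (scores 23 and 20), and the gene body held 6 HEPA1-6 peaks and no liver-labelled peak. Past Cab39, a scaffold of the LKB1 kinase complex, both peaks began 41 bp after the gene (chr1:85851618-85855404), with 3787 bp and 850 bp. At Ergic1, Kif11 and Cab39 the 2 lists thus agreed to the base on the edge that faces the gene and differed in how far the peak ran on. The remaining 2 of the 6 nearest followed Gm25360, an snRNA gene (13 bp, chr1:72226443-72228837 in both lists), and the pseudogene Gm11878 (29 bp, chr4:22520126-22520786 in both lists).

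The 6 nearest members upstream of a gene, read along the strand of the peak, lay 9 to 74 bp away, measured from whichever peak of the pair came closer. The Sp4 pair (9 bp) had scores of 25 (HEPA1-6) and 29 (liver-labelled), and neither list had a peak over the gene itself. At Rmnd5a, a subunit of the CTLH ubiquitin ligase, the HEPA1-6 peak began 26 bp from the gene and the pair shared the 149 bp from 71440992 to 71441140 (scores 16 and 25). The Rcor2 pair (33 bp) began at the same base in both lists, chr19:7266553, and ended at 7267361 in HEPA1-6 and at 7267289 in the other list. The Tob2 pair (69 bp) ended at the same base, chr15:81859399. At Prdx6, a peroxiredoxin whose strand the tables used do not give, the pair lay 74 bp away (chr1:161237462-161240038, scores 43 and 19). The last of the 6 lay 40 bp from the pseudogene Vmn1r-ps145, also of unknown strand here. The only listed marker gene with a member as neighbour was Sdha, the catalytic subunit of succinate dehydrogenase, with a pair 444 bp past its end (chr13:74321154-74321811, scores 68 and 15).

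The rule did not ask whether the neighbouring gene itself held peaks. This was compared within 3 kb of a protein-coding gene, where nearly all peaks carried a strand. Both lists had a peak over the gene body for 145 of 207 members (70.0%, 63.5 to 75.9%). For stranded peaks outside genes found in HEPA1-6 only the share was 54.4% (481 of 884), and for those in the liver-labelled list only 39.3% (48 of 122). The members' share was higher by 15.6 percentage points (95% Newcombe interval 8.31 to 22.3) and by 30.7 points (19.7 to 40.8). Members and peaks without a partner were told apart by the same lists, so this measure is not independent of that choice. A peak without a partner has by definition no overlapping peak in the other list. How far the differences follow from this was not tested. Over all 20665 protein-coding genes of chromosomes 1 to 19 the share with peaks of both lists was 27.2%. Among members, 73.0% (111 of 152) of those downstream of a protein-coding gene and 61.7% (50 of 81) of those upstream of one, by the strand of the peak, had such a gene, a difference of 11.3 points whose interval runs from -1.10 to 23.9.

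The side also set members apart from peaks of the liver-labelled list alone. Within 3 kb of a protein-coding gene of known strand, 109 of 167 members (65.3%, 57.8 to 72.1%) lay past the gene's end, against 26 of 95 liver-labelled peaks without a partner (27.4%, 19.4 to 37.1%), a difference of 37.9 points (25.6 to 48.4). Of HEPA1-6 peaks without a partner 539 of 725 (74.3%) did, and the members' share was lower by 9.08 points (interval of the difference -17.2 to -1.51). The lists differ in length, and the part of library depth in these differences was not tested.

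**Figure D3:**
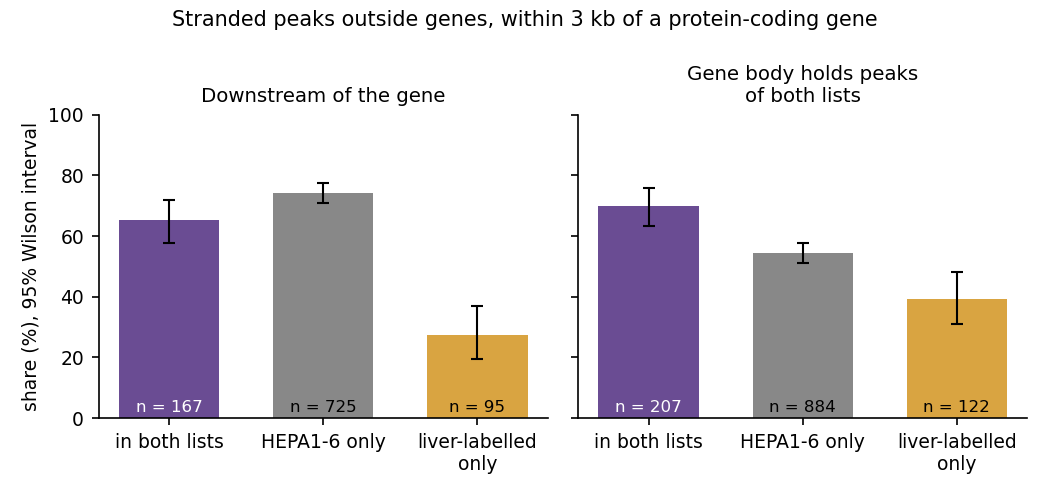
Share of peaks (vertical axis, percent, 95% Wilson intervals) past the end of a protein-coding gene within 3 kb (left) and with a neighbouring protein-coding gene that holds peaks of both lists (right), for members, HEPA1-6 peaks alone and liver-labelled peaks alone. Members stand at 65.3% and 70.0%, HEPA1-6 peaks alone at 74.3% and 54.4%, and liver-labelled peaks alone at 27.4% and 39.3%.

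Within a pair, the HEPA1-6 peak was usually the longer one and held the other. The median width was 1187.5 bp for HEPA1-6 members and 692 bp for liver-labelled members, and 251 of the 328 liver-labelled peaks (76.5%) lay wholly inside their partner. All stranded peaks of the 2 lists had medians of 1118 and 936 bp. This nesting was not particular to members. The median covered share of the liver-labelled peak was 100% in members and in the 8679 same-strand pairs over genes. That of the HEPA1-6 peak was 61.9% in members and 36.2% in those pairs. The HEPA1-6 peak reached closer to the gene in 174 pairs, the liver-labelled peak in 46, and both stopped at the same base in 108. Downstream members were wider in HEPA1-6 (median 1528 bp) than upstream members (1010.5 bp), while liver-labelled widths had medians of 601.5 and 745.5 bp. The smallest overlap was 19 bp, beside Brwd1 (chr16:96082937-96084267). Just outside the rule, the smallest gene overlap that left out a same-strand pair was 1 bp, at Ncl, and the closest same-strand peaks of the 2 lists outside genes that did not touch were 531 bp apart.

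Edges often coincided to the base. Of the 328 pairs, 113 had the same start, 116 the same end and 32 both, so that 197 (60.1%, 54.7 to 65.2%) shared at least 1 edge. Among the 8679 same-strand pairs over genes 46.1% did, 14.0 points less (8.51 to 19.3), and among strandless pairs outside genes 57.3%. DRIP protocols cut genomic DNA with restriction enzymes before the pull-down, so peak edges inside promoter windows were set against the recognition letters of 5 enzymes in common use: AAGCTT (HindIII), GAATTC (EcoRI), TGTACA (BsrGI), TCTAGA (XbaI) and AATATT (SspI). All are palindromes, so both strands read the same. Motifs may overlap each other, and an edge was counted once. An edge was counted where it was the first or last base of a fragment cut there and filled in. This comparison was added after the edges had been seen. Of all edges inside windows, 467 of 879 HEPA1-6 edges (53.1%, 49.8 to 56.4%) and 346 of 825 liver-labelled edges (41.9%, 38.6 to 45.3%) stood at such a position, while 0.112% of all window positions do. The windows hold AAGCTT in 7.45%, GAATTC in 6.04%, TGTACA in 4.68%, TCTAGA in 6.57% and AATATT in 6.72%, and any of them in 26.9%.

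Among the members only 1 of 16 HEPA1-6 edges and 2 of 11 liver-labelled edges inside windows stood at such a position. They are shown as 30 bases of the + strand (RefSeq, GRCm38.p6) with the recognition letters in capitals.
Gm11205, chr11:79704421-79704450, HindIII: ccgcggccgccaAAGCTTtcccgtgtcctc
Tob2, chr15:81858470-81858499, XbaI: caccttgtctccTCTAGAcccctccctgcc
Both peaks of the Gm11205 pair ended at 79704437, inside the HindIII letters, and the liver-labelled peak at Tob2 began at 81858483, inside the XbaI letters, while its HEPA1-6 partner began at 81858395. With 27 edges, the members' share has wide intervals (1.11 to 28.3% for HEPA1-6 and 5.14 to 47.7% for liver-labelled edges). The first lies below the 53.1% of all HEPA1-6 edges inside windows, and the second includes the 41.9% of the liver-labelled list. The Gm11205 site counts in both lists. Edges outside the windows were not analysed here.

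By score, members stood above the middle of the HEPA1-6 list and at the middle of the other. The median score was 32 for HEPA1-6 members, against 21 for all stranded HEPA1-6 peaks, and 22 for liver-labelled members, against 22. Stranded peaks outside genes found in only 1 list had a median of 18 in either list. Members were chosen by overlap between the lists, which favours wide peaks, so these scores are a description. How far the differences in score follow from that choice was not tested. The 8 pairs that ranked highest by score in both lists together included 3 at the start of chromosome 9. Another was Tgfb2, a ligand of the TGF-beta family, with the identical interval chr1:186620531-186621075 in both lists, 1712 bp past the gene, and scores of 442 (HEPA1-6) and 301 (liver-labelled). Gm21814 had a pair 45 bp past its end (chr6:149586208-149586546, scores 1510 and 1001). Tcstv3, of a family expressed in very early embryos, had one 1803 bp downstream along the strand of the peak (scores 2070 and 423). The ferritin light chain pseudogene Ftl1-ps2 had one 869 bp upstream along the strand of the peak (scores 2106 and 617). Neither list had a peak over Gm21814, Tcstv3 or Ftl1-ps2 itself. Whether reads at these pairs map to many copies was not analysed, so the nearest gene gives a position only.

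**Figure D4:**
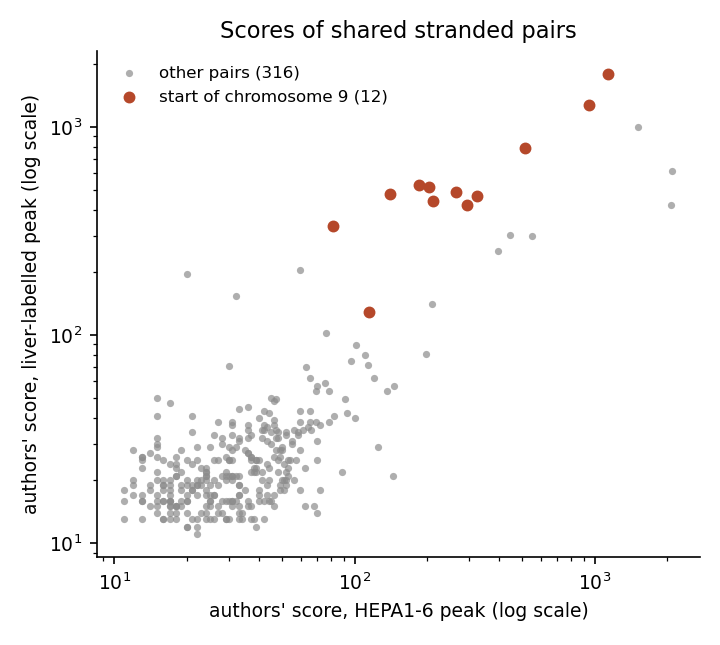
The authors' score of each pair's liver-labelled peak (vertical axis, log scale) against that of its HEPA1-6 peak (horizontal axis, log scale), 1 point per pair, with the 12 pairs at the start of chromosome 9 in red. Those 12 have HEPA1-6 scores of 81 to 1136 and liver-labelled scores of 129 to 1800, and most other points lie below 100 on both axes.

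Most members stood alone: 249 had no other pair within 50 kb, and 7 runs of at least 3 pairs held 33 members. The longest run opened the assembled sequence of chromosome 9, chr9:3000346-3038187, with 12 pairs over 37842 bp, all on the + strand. Their nearest gene is Mir101c, a miRNA gene of the - strand, so that the pairs lay upstream of it along their own strand and past its end by the strand of the gene. Mouse chromosomes are telocentric, so the assembled start borders the centromere and its repeats, where reads can map to many copies. The lowest scores there were 81 and 129, the medians 238 (HEPA1-6) and 482.5 (liver-labelled), and every score lay above the median of its list. Without this run 316 pairs remained, at a median distance of 1042 bp and with 57.6% downstream.

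The next run, chr15:24873924-24895397, had 5 pairs on the - strand, 53222 to 73613 bp from its nearest gene, the snRNA gene Gm22810. Its HEPA1-6 scores lay between 14 and 50 and its liver-labelled scores between 15 and 37, and chr15:24873924-24874723 and chr15:24888844-24890197 were identical intervals in both lists. On chromosome 7 a single HEPA1-6 peak of 8831 bp (chr7:110632648-110641478, - strand) held 4 liver-labelled peaks of 636 to 938 bp. It lay 1742 bp from the lncRNA gene Gm28863, whose strand is unknown here, and upstream along the strand of the peak. On chromosome 1 there were 2 pairs past Nop58, a core protein of box C/D snoRNPs, and 1 pair before Bmpr2, a BMP receptor, which formed a run on the + strand. On chromosome 10 there were 3 pairs on the - strand beyond the vomeronasal receptor gene Vmn2r82, 11366 to 20158 bp past its end and against its strand.

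**Figure D5:**
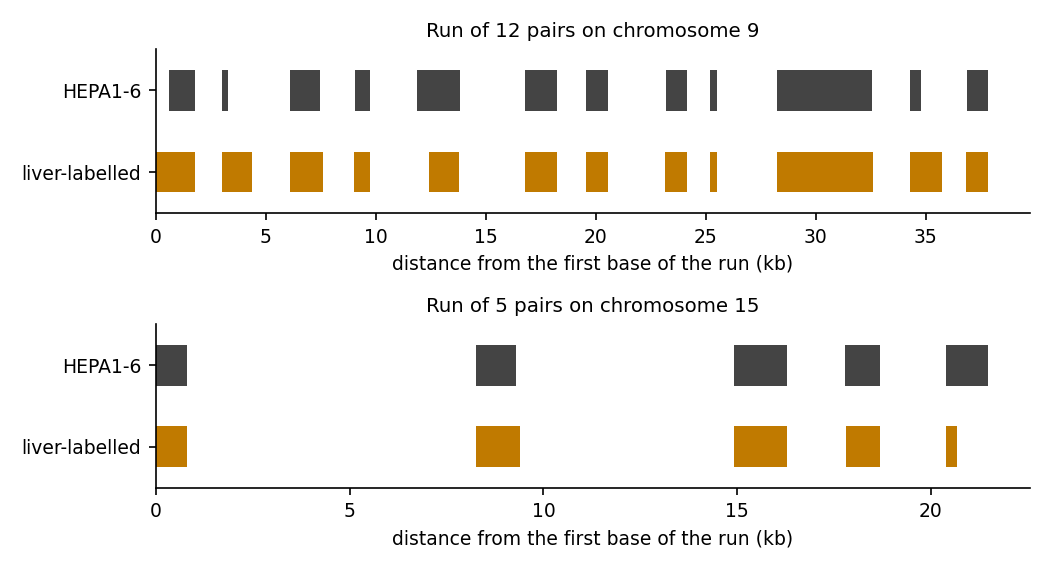
Peaks of the runs on chromosome 9 (12 pairs, top) and chromosome 15 (5 pairs, bottom), drawn to scale against the distance from the first base of the run (kb), 1 row per list. Only members are drawn, so the overlap between the 2 lists and the lack of annotated genes under these peaks follow from the rule. Within some pairs the 2 peaks differ in length.

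The 21 members next to a miRNA gene lay upstream of it along the strand of the peak in 19 cases, 12 of them on chromosome 9, and downstream in 2, both past Mir345. MicroRNAs are cut from longer primary transcripts that often begin kilobases before the annotated hairpin. A pair upstream on the strand of the gene can lie within such a transcript, which was not tested here. The 12 pairs on chromosome 9 run against the strand of Mir101c. Of the other 9, the one with the highest scores lay 6134 bp before Mirlet7a-1 on the same strand (chr13:48544406-48547073, scores 547 and 298). Mirlet7a-1, Mirlet7f-1 and Mirlet7d follow each other there on the - strand, and they are printed because their 5p miRNAs share 1 seed (bases 2 to 8, in capitals), as RefSeq (GRCm38.p6) gives them. The 5p miRNAs of Mir17 and Mir345 have other seeds.
let-7a-5p: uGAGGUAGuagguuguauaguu
let-7f-5p: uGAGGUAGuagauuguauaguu
let-7d-5p: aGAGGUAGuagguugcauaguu
miR-17-5p: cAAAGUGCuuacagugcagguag
miR-345-5p: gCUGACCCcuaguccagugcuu
The pair before Mir17, the first hairpin of the miR-17-92 cluster, ended at the same base in both lists, 639 bp ahead (chr14:115040209-115043032, scores 48 and 34). Ahead of Mir30d there were 2 pairs, at 10131 and 18259 bp, and the farther one had the identical interval chr15:68359548-68366143 in both lists (scores 97 and 75). Mir122, the abundant miRNA of hepatocytes, had 2 pairs before it, at 201 bp (scores 49 and 18) and 3432 bp (scores 18 and 26). Mir5112 had 1 pair, at 6692 bp. The strands of Mir30d, Mir122 and Mir5112 are unknown here, so these sides follow the strand of the peak.

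Beyond 3 kb lay 74 members, where few peaks carry a strand at all. Protein-coding genes were the neighbour for 26 of them (35.1%, 25.2 to 46.5%), against 207 of 254 members within 3 kb (81.5%). Of the 47 with a neighbour of known strand 27 shared it (57.4%, 43.3 to 70.5%), against 176 of 188 (93.6%) within 3 kb, and 10 of the others belong to the run on chromosome 9. Agfg1, whose product binds nucleoporins, had 2 pairs past its end on its strand, at 6889 and 12213 bp. Macir had 1 at 27104 bp past its end, with scores of 125 (HEPA1-6) and 29 (liver-labelled). The farthest pairs from any gene, at 137222 bp, were 2 liver-labelled peaks inside 1 HEPA1-6 peak on the - strand, chr1:101891765-101894550 (scores 70, 14 and 25).

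Members were found most often on chromosomes 1 and 15. Chromosome 1 held 41 of them (12.5%, against 8.20% of all same-strand pairs) and chromosome 15 held 35 (10.7%, against 12.3%). Of the members 177 lay on the + strand (54.0%, 48.6 to 59.3%).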

How the data were processed

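DNA-RNA immunoprecipitation with S9.6 was sequenced in paired 75 bp reads after 10 PCR cycles (input 4), per the labels' protocols. The submitters' processing notes name CASAVA 1.8.2, cutadapt, Bowtie2, bedtools, SAMtools, MACS2 and mm10, without roles. The deposited lists give position, score and strand per peak. The deposited score takes whole values from 10 upwards, and its scale, the merged libraries and the source of the strand are not given in the sources used here. Single libraries, RNase H1 controls included, were not analysed here.

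Peaks were overlapped with each other and with 47042 RefSeq genes (GRCm38.p6) on chromosomes 1 to 19 in Python 3.11.15 with numpy 2.4.6, pandas 2.3.3 and scipy 1.17.1. Distance ran from the union of a pair to the nearest gene boundary, and the side followed the strand of the peak. Gene strands came from the RefSeq promoter and miRNA tables (28097 genes). Shares have 95% Wilson intervals, differences of shares Newcombe intervals and medians order-statistic intervals. On simulated peaks, 200 of 200 planted pairs were found with the right distance and side. With 1 list per source no test between sources was run.

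The text names the 8 pairs lowest in rank sum, the 6 nearest on each side, the 5 farthest, pairs beside a listed marker gene and the 5 longest runs, and other names were chosen after their values were seen. Members, rules and gene lists were chosen with earlier results of these data known. Alternatives were another overlap, gene set, score limit, reference point, strand source and window, and chromosome 15 left out. Leaving out the run on chromosome 9, and keeping pairs within 3 kb, were added after seeing the data.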

Additional observations from a re-analysis of the deposited data

Results flagged for a closer look

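Outside chromosomes 1 to 19, which the comparisons do not use, there were 5 pairs of the same kind on chromosome X. They neighbour Gm14333, Gm14365, Spin2e, Btbd35f14 and Flna, the gene of the actin-binding protein filamin A. The Flna pair lay 916 bp downstream, along the strand of the peak (scores 49 for HEPA1-6, 24 for liver-labelled), and the other 4 lay upstream of their gene, at 150 to 2018 bp.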

How the results depend on the processing

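No paired analysis was possible because each source has 1 list and none of the results comes from a test between samples. Of 39 alternatives over 6 results, 22 left the result unchanged by the rule used (a share or median within the interval of its main value, a count of pairs within 1.5 times 328). The counts among them were 410 with protein-coding and lncRNA genes only, 293 without chromosome 15, 316 without the run on chromosome 9 and 254 within 3 kb. Requiring 50% overlap of both peaks left 178 pairs and 48.3% with a nearest gene holding peaks of both lists (main value 54.6%). With protein-coding and lncRNA genes only, the median distance was 1787 bp, 36.3% lay within 1 kb and 49.0% had such a gene. In the higher-scoring 50% of each list there were 150 pairs, at a median of 1368.5 bp, with 46.0% downstream and 40.0% beside such a gene. From the midpoint of the shared bases the median was 1984.5 bp and 24.4% lay within 1 kb. The gene's strand gave 67.2% downstream, and a window of 2 kb held 68.0%. Keeping pairs within 3 kb, added after seeing the data, gave a median of 725.5 bp, 61.0% within 1 kb, 61.4% downstream and 61.4% beside such a gene. The cause of these shifts was not tested, beyond what each setting changes by construction. No share or median left its interval without the run on chromosome 9 or without chromosome 15. The coverage of the liver-labelled peak was not recomputed without chromosome 15. The unknown depth limits the peaks in only 1 list: such a peak may lack a partner because the other library is shallower.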

Other observations

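Chromosome Y held 2 pairs of the same kind, both on the + strand and, along it, downstream of the lncRNA gene Gm33272, at 3257 bp (scores 86 for HEPA1-6, 91 for liver-labelled) and 11351 bp (scores 144 and 191).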
